A study of Mus musculus with 2 samples.

Results

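Glucagon-producing α-cells that carried a single islet hormone were taken from both libraries of a single-cell RNA-seq study of mouse pancreatic islets. A barcode counted as an α-cell when Gcg took at least 4% of its unique molecular identifiers (UMIs, counted mRNA molecules), Ins1 and Ins2 together under 3%, Ppy under 3% and Sst under 1%. It also needed at least 1000 UMIs, of which genes of the mitochondrial genome took at most 20%. These limits gave 158 α-cells among 1006 Tg7 cells and 131 among 755 Wild-type cells, so 289 of 1761 cells in all. The Tg7 share was 15.7% (13.5 to 18.1) and the Wild-type share 17.4% (14.7 to 20.2). Brackets hold 95% intervals throughout, exact Clopper-Pearson for shares and conditional exact binomial for ratios, and they cover counting error only.

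Both groups were 12-week-old male C57Bl6 mice. Tg7 mice carry a β-cell transgene from which miR-7a2, a microRNA, is overexpressed, and their Wild-type littermates do not. Per the study, the animals of both libraries also bore rat Ins2-Cre and a floxed-stop tdTomato reporter at Rosa26 that marks β-cells, and tdTomato had UMIs in both. Transgene and reporter are directed at β-cells and not at α-cells. Each genotype was measured as 1 library, for which neither labels nor methods state how many mice were pooled, and no test between the groups was therefore possible. The mature microRNA that the transgene encodes is shown because its first bases set which transcripts it pairs with. It is encoded by Mir7-2 on the plus strand of chr7:78888295-78888317 (GRCm38.p6, sequence from RefSeq), and capitals mark the seed, bases 2 to 8.
mmu-miR-7a-5p: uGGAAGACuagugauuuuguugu

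α-cells secrete glucagon when glucose is low or amino acids are high, and glucagon raises hepatic glucose output and amino acid breakdown. The transcription factors Irx1 and Irx2 mark them among islet cells. The prohormone convertase encoded by Pcsk2 cuts proglucagon to glucagon, whereas Pcsk1 cuts the same precursor to GLP-1 in gut cells. Neighbouring β-cells and δ-cells restrain α-cells through insulin and somatostatin.

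The α-cells of both libraries had a like median of UMIs. Their UMIs ran from 1007 through a median of 15879 to 40657 in Tg7 and from 1192 through 15849 to 39328 in Wild-type, and the median number of genes was 2706.5 and 2957. UMIs outside the hormone genes were fewer in Tg7, with a median of 8188.5 (quartiles 6471 and 9886) against 8899 (7850 and 10278). The median mitochondrial share was 3.37% in Tg7 and 3.61% in Wild-type. No barcode occurred in both libraries, and Scrublet called none of the α-cells a doublet while calling 14 Tg7 and 6 Wild-type cells of other kinds. All levels below are UMIs summed over the α-cells of a library per 1000000 UMIs left after removing the 7 hormone genes Ins1, Ins2, Gcg, Sst, Ppy, Pyy and Iapp. That total was 1335369 in Tg7 and 1253680 in Wild-type.

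Gcg filled a large part of the RNA of each cell. Its share of UMIs had a median of 44.9% in Tg7 (from 8.45% to 63.2%) and 41.4% in Wild-type (from 18.3% to 64.8%). The Gcg limit fell in a wide gap: among cells that met the other limits, the nearest below it held 1.78% in Tg7 and 0.0560% in Wild-type. At the insulin limit the highest cell inside held 0.288% in Tg7 and 2.83% in Wild-type, and the lowest outside 3.54% and 9.70%. At the Ppy limit the cells of Tg7 showed no gap, with 2.92% inside and 3.04% outside, against 1.55% and 3.05% in Wild-type. For Sst the highest inside held 0.0253% and 0.0394% and the lowest outside 5.44% and 2.05%. Beyond these limits, 72 Tg7 and 6 Wild-type cells paired Gcg with insulin, 32 and 16 paired it with Ppy, and 2 and 11 with Sst.

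**Figure D1:**
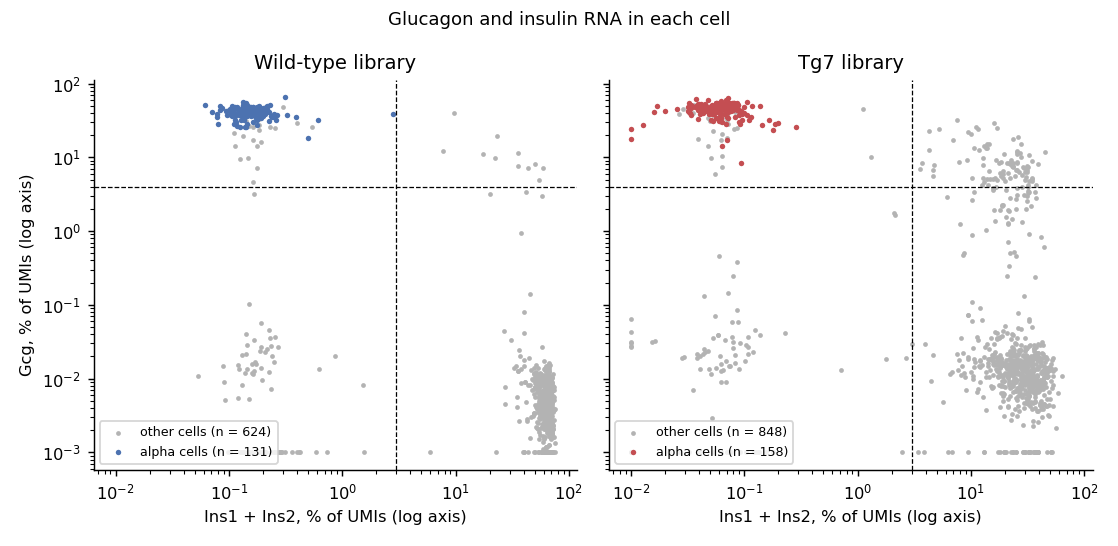
Each point is a cell of the Wild-type (left) or Tg7 (right) library, plotted by the percentage of its UMIs from Ins1 plus Ins2 and from Gcg on log axes, with values under 0.01% and 0.001% drawn at those values. Dashed lines are the limits of 3% and 4%, coloured points are the 131 and 158 α-cells, and grey points near them in the upper left were set aside by the Ppy or Sst limit.

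The α-cell label was checked against genes that the rule did not use. Ttr, which encodes the thyroxine carrier transthyretin and is abundant in α-cells, was seen in 157 of 158 α-cells of Tg7 and all 131 of Wild-type. Its level was 69088 in Tg7 and 58582 in Wild-type α-cells, against 4278 and 2667 in cells with insulin only. Irx1 stood at 109 and 114 in α-cells against 1.05 and 0.241 in insulin-only cells, and Irx2 at 145 and 133 against 5.54 and 1.93. All of these are α-cell genes by prior knowledge, and each was high in α-cells of both libraries.

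β-cell RNA was low. Insulin transcripts made up a median of 0.0606% of UMIs in Tg7 and 0.144% in Wild-type α-cells, beside 0.0703% and 0.188% in cells with none of the 4 hormones (insulin, Gcg, Sst and Ppy). Both classes are low in insulin by selection. Ins1 had no UMI in 88 of 158 Tg7 α-cells and in 1 of 131 Wild-type α-cells. The β-cell factor Mafa and the β-cell peptide Ucn3 had 0 UMIs in Tg7 and 2 each in Wild-type, the glucose transporter Slc2a2 had 0 and 1, and Pdx1 had 2 and 2. The summed level of 10 β-cell markers was 5050 in Tg7 and 4480 in Wild-type, held mainly by Iapp, the insulin genes and Slc30a8 (974 and 930 UMIs), a zinc transporter that other islet cells also express. Sst had 19 and 31 UMIs in all α-cells together and the δ-cell factor Hhex 1 and 0. The summed level of 4 δ-cell markers was nonetheless 1416 in Tg7 and 1505 in Wild-type, held mainly by Rbp4. The tdTomato reporter was not seen in 158 Tg7 α-cells, which allows a share of up to 1.90% of cells with a UMI (3 counts of the total), and was seen in 2 of 131 Wild-type α-cells (1.53%, 0.185 to 5.41). In insulin-only cells, at higher median depths of 28233 and 49719 UMIs, 31.9% and 52.8% carried it.

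Markers of cell types outside the endocrine islet were mostly close to 0. Of 7 endothelial genes, all 7 had at most 3 UMIs in either library, with summed levels of 0 in Tg7 and 3.99 in Wild-type. Of 7 acinar genes 5 had at most 3 UMIs in Tg7 and 7 in Wild-type, with summed levels of 11.2 and 0.798. Of 8 macrophage genes, 7 had at most 3 UMIs, C1qa being the exception with 135 and 124, and the summed levels were 102 and 101. Krt19 and Cftr, which define ducts, had 0 UMIs in both, and the summed level of 4 duct genes, 583 and 236, came from Krt7 and Spp1. The fibroblast collagen Col1a2 was counted 46 times in Tg7 α-cells and 7 times in Wild-type, whereas Col3a1 and Pdgfrb had none, and the summed level of 6 stellate genes was 37.4 and 8.77. The part of such RNA in the differences given below was not tested beyond these values.

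Across genes, few set α-cells apart from both insulin-only and Sst-only cells. Of 1684 genes with at least 100 UMIs in the α-cells of each library, 10 (0.594%) were at least 4-fold higher than in both other classes in both libraries. Beside Gcg, by which the cells were chosen, they included Ttr, the mitochondrial gene Higd1a, the growth factor protease Pappa2, the thymosins Tmsb15b2 and Tmsb15b1, the amino acid transporter Slc38a5 and the kinase Wnk3. The thymosin genes are near-identical copies, so their single values are uncertain. Higd1a had a level of 546 in Tg7 and 436 in Wild-type α-cells and 5.25 and 0.603 in insulin-only cells, and 0 UMIs in Sst-only cells. The genes just below the limit were the crystallin Cryba2, Lpl, Grb10, Tmsb15l, Irx2 and Upp1. Only 13 Tg7 and 20 Wild-type cells were Sst-only, so the smallest level that 3 UMIs make there was 45.8 and 23.9, and an α-cell gene of low level could not pass. Because the cells were chosen by their hormones, these contrasts describe the class and are not a test of it.

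**Figure D2:**
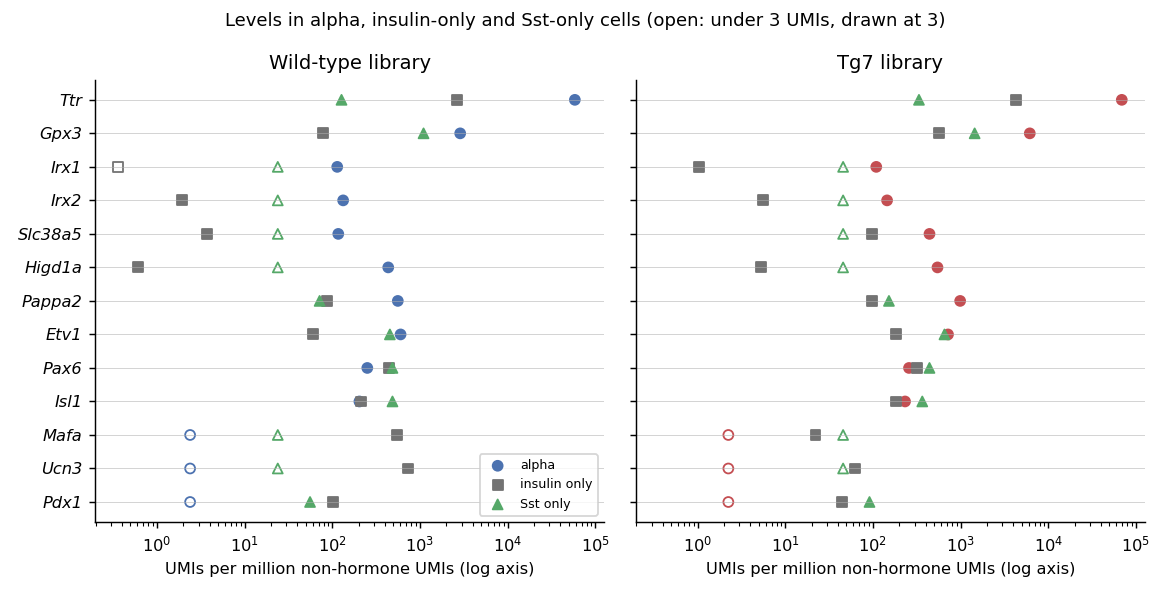
Level of 13 genes (UMIs per 1000000 non-hormone UMIs, log axis) in α-cells (circles), insulin-only cells (squares) and Sst-only cells (triangles) of each library, where open symbols stand for fewer than 3 UMIs and are drawn at the level of 3. Ttr, Irx1, Irx2, Slc38a5 and Higd1a lie to the right in α-cells of both libraries, Pax6 and Isl1 lie near each other in the 3 classes, and Mafa, Ucn3 and Pdx1 are open in α-cells.

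Cell-to-cell spread within a library was measured as variance over mean, which grows with a gene's level. After thinning each cell to 2000 non-hormone UMIs, the variance of Ttr over its mean was 39.8 in Tg7 and 37.9 in Wild-type, where the median gene had 1.03 and 1.02 and where 1 marks pure sampling. In Tg7, Slc38a5 came next at 15.3, with UMIs in 52 of 146 thinned cells and up to 37 in a cell. In Wild-type, the uroplakin gene Upk3a came after Ttr and the nuclear RNA Malat1 at 5.37, with UMIs in 26 of 129 thinned cells. Upk3a was thus a gene of a minority of α-cells. Before thinning it was seen in 26 of 158 α-cells of Tg7 and 52 of 131 of Wild-type, and in 2.96% and 2.48% of the deeper insulin-only cells.

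Tg7 and Wild-type α-cells were then compared over the 6028 genes with at least 50 UMIs in the α-cells of both libraries together. The levels of 43 genes (0.713%) were at least 2-fold higher in Tg7, and those of 130 (2.16%) at least 2-fold lower. Among these, Ppy, Pyy and Iapp counted as higher and Ins1 and Ins2 as lower. The interval lay above 1 for 456 genes (7.56%) and below 1 for 841 (14%), and the ratio itself was above 1 for 41.4% and below 1 for 58.6%. The median log2 ratio was -0.07, with quartiles at -0.33 and 0.16. Scaling to all UMIs, Gcg included, moved that median to -0.21. In insulin-only cells, the type the transgene is directed at, 832 of 11325 genes (7.35%) were higher and 640 (5.65%) lower by the same limit. Insulin-only cells were deeper and more numerous, so these shares cannot be set against each other directly.

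**Figure D3:**
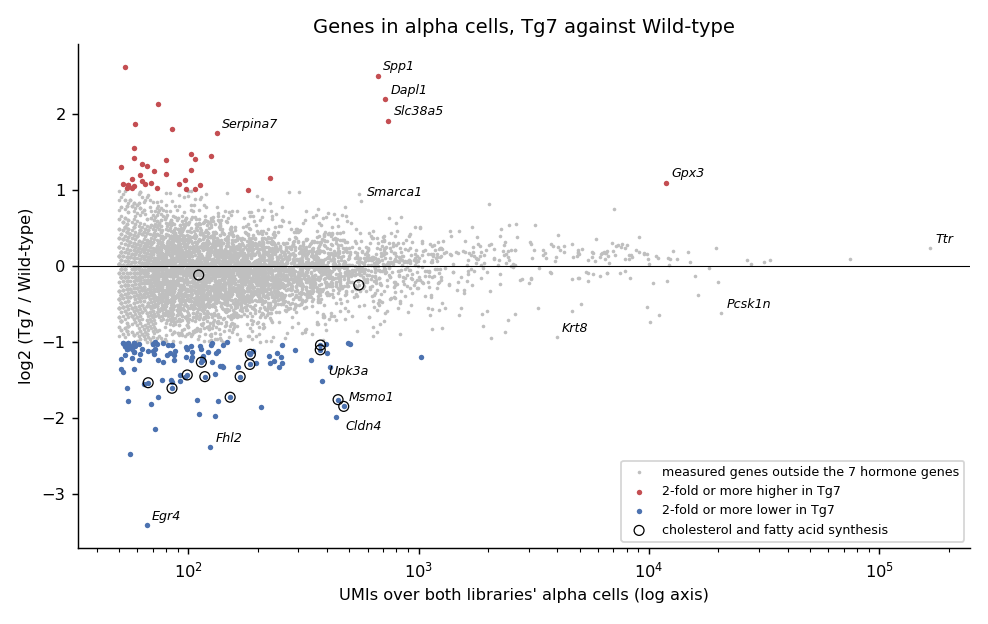
Each point is a measured gene outside the 7 hormone genes, plotted by its UMIs over the α-cells of both libraries (log axis) and by the log2 ratio of Tg7 over Wild-type. Genes at least 2-fold higher are red and at least 2-fold lower blue. Spp1, Dapl1, Slc38a5 and Gpx3 stand above the cloud, and 13 of the 15 circled cholesterol and fatty acid synthesis genes lie among the blue points.

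None of the 4 measured α-cell transcription factors differed by 2-fold. Of all genes 0.713% were 2-fold higher and 2.16% 2-fold lower. A short list with none past 2-fold, here and below, is near that share. By ratio 3 of the 4 factors lay below 1 (58.6% of all genes did), and 1 had an interval below 1 (14%). Irx1 had a ratio of 0.959 (0.756 to 1.22) and Irx2 of 1.09 (0.882 to 1.35). These intervals include 1 and leave out a 2-fold difference. Pou3f4 had 0 and 3 UMIs. Of 10 measured factors shared by islet cells, none reached 2-fold. The interval excluded 1 for Insm1 alone, a zinc-finger factor of endocrine cells, at 101 and 140. Of all genes, 14% had an interval below 1 and 7.56% above. Pax6 (1.03, 0.880 to 1.20) and Isl1 (1.141, 0.964 to 1.35), which α-cells and β-cells both need, had intervals that included 1.

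Of a list of 20 α-cell markers, 14 were measured beside Gcg, which the rule used. Of these 12 were higher in Tg7 by ratio (41.4% of all genes were), 7 with an interval above 1 (7.56%) and 2 by 2-fold or more (0.713%). The median log2 ratio was 0.24, and with Gcg it was 0.25, or 0.10 when levels were scaled to all UMIs. That scaling lowers the log2 ratio of every gene alike. Gcg itself was counted 1156531 times in Tg7 and 894176 times in Wild-type, a ratio of 1.21 (1.21 to 1.22). The ratio of Ttr was 1.18 (1.17 to 1.19), that of Gc, the vitamin D binding protein, 1.55 (1.34 to 1.81), and that of Smarca1, a chromatin remodeller, 1.80 (1.51 to 2.16). The member that lay lowest was the arginine transporter Slc7a2, with levels of 257 and 308. The 2 members past 2-fold were Gpx3 and Slc38a5.

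Gpx3 (chr11:54902854-54910387) encodes a secreted glutathione peroxidase and had the most UMIs of the genes that differed by 2-fold, the hormone genes aside. Its level was 6166 in Tg7 and 2883 in Wild-type α-cells, a ratio of 2.14 (2.06 to 2.22). Its median per cell was 5186 in Tg7 and 2784 in Wild-type, with the middle 50% of cells from 3881 to 7589 and from 1935 to 3548, so the middle ranges of the libraries did not meet. The difference was thus carried by most cells. Insulin-only cells had lower levels, 575 and 79.1, and a ratio of 7.26. Among α-cells with Ppy under 0.1% of UMIs the ratio was 1.78.

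Slc38a5 (chrX:8271381-8280179), a sodium-coupled carrier of glutamine and other neutral amino acids known in α-cells for responding to high amino acids, had a level of 443 in Tg7 and 117 in Wild-type α-cells. The ratio was 3.77 (3.15 to 4.55). It was seen in 94 of 158 cells in Tg7 and 60 of 131 in Wild-type, and after thinning in 35.6% (27.9 to 44.0) and 14.0% (8.48 to 21.2). A single Tg7 cell held 148 of the 591 UMIs, and the ratio without the top cell of each library was 3.14 (2.58 to 3.84). The difference was thus not carried by that cell alone. Another Tg7 cell had a still higher level, 14853, where the upper quartile was 360, and the ratio without both cells was not computed. Only 6 Tg7 and 2 Wild-type cells had at least 10 UMIs. Insulin-only cells had 96.8 and 3.74, and none of the 55 and 44 cells without a hormone had a UMI. Of the 10 measured members of the amino acid transport list, Slc38a5 alone passed 2-fold (0.713% of all genes were 2-fold higher and 2.16% lower). The large neutral amino acid carrier Slc7a5 was lower at 38.2 and 62.2, and Slc6a6, which carries taurine, at 103 and 140.

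Spp1 (chr5:104435111-104441053), which encodes the secreted phosphoprotein osteopontin, had the highest ratio of the 12 genes ranked highest. Its level was 428 in Tg7 and 74.98 in Wild-type α-cells, a ratio of 5.70 (4.58 to 7.17), with UMIs in 102 of 158 and 28 of 131 cells. A single Wild-type cell held 42.6% of that library's UMIs, and without the top cell of each library the ratio was 9.23 (6.96 to 12.4). In Tg7 20 cells had at least 10 UMIs and in Wild-type 2. Insulin-only cells showed 439 and 36.1, so the level in Tg7 was alike in both classes. The Tg7 cells without a hormone, which were shallower, had a level of 41.5, and 7.27% of them had a UMI. Cells with Ppy only, 19 in Tg7 and 10 in Wild-type, had more, at 1787 and 1493. Among α-cells with Ppy under 0.1% of UMIs the ratio was 4.56. In Wild-type 1 cell without a hormone held 1216 UMIs. Spp1 also marks duct cells, and the part of these and of Ppy content in the difference was not tested.

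Dapl1, a gene of unsettled function in the islet, had 443 in Tg7 and 96.5 in Wild-type α-cells (ratio 4.59, 3.77 to 5.63), and 421 and 303 in insulin-only cells. Serpina7, which encodes thyroxine-binding globulin, had 77.9 and 23.1, against 71.2 in the Tg7 cells without a hormone. In insulin-only cells it had 339 in Tg7, 4.35 times the α-cell level, and 21.3 in Wild-type. Ramp1 (2.78), a partner of the calcitonin receptor family, had 57.7 in Tg7 α-cells and 74.1 in cells without a hormone, and Wdr89 (2.09) had 58.4 and 47.4. These 3 levels in α-cells were thus near or below those of cells that include other cell types. Others among the 12 highest were Ifih1 (2.73), a sensor of viral RNA, Tesc (2.65), Agt (2.23), the angiotensin precursor, and Dnlz (2.02). The lower bounds of these, Ramp1 and Wdr89 included, ran from 1.32 to 1.81. The ratio of Tesc was 1.09 among α-cells with Ppy under 0.1%, and that of Ifih1 was 1.72 when each cell was given equal weight. Tesc had 51.2 in Tg7 and 4.58 in Wild-type insulin-only cells. The part of β-cell RNA in the α-cell ratios of Serpina7 and Tesc was not tested.

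Peptide genes of the pancreatic polypeptide family also stood higher in Tg7 α-cells. The Ppy level was 8052 in Tg7 and 1703 in Wild-type, and per cell the median was 1206 and 144. Ppy reached 0.1% of UMIs in 75 of 158 Tg7 cells (47.5%, 39.5 to 55.6) and in 24 of 131 Wild-type cells (18.3%, 12.1 to 26.0). Cells without a hormone reached it in 6 of 55 and 1 of 44, at median depths of 4661 and 6541 UMIs, and their median was 0, and 18.5% and 3.11% of insulin-only cells did. The rule keeps Ppy under 3%, so these shares are bounded by it. Pyy, which encodes peptide YY and is not part of the rule, had 32085 in Tg7 and 12196 in Wild-type (ratio 2.63, 2.58 to 2.68), with medians per cell of 18911 and 5014. Within α-cells with Ppy under 0.1%, 83 in Tg7 and 107 in Wild-type, the ratio of Pyy was 1.85. In the α-cells with more Ppy, 75 and 24, the Pyy level was 45438 in Tg7 and 25619 in Wild-type. Pyy was thus higher in Tg7 on both sides of that limit.

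Iapp, the amylin gene of β-cells, had a ratio of 4.28 (3.98 to 4.598), but a single cell held 1917 of 4177 Tg7 UMIs and the ratio without the top cells was 2.55. Its median per cell was 616 in Tg7 and 384 in Wild-type α-cells and 489 and 154 in cells without a hormone.

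**Figure D4:**
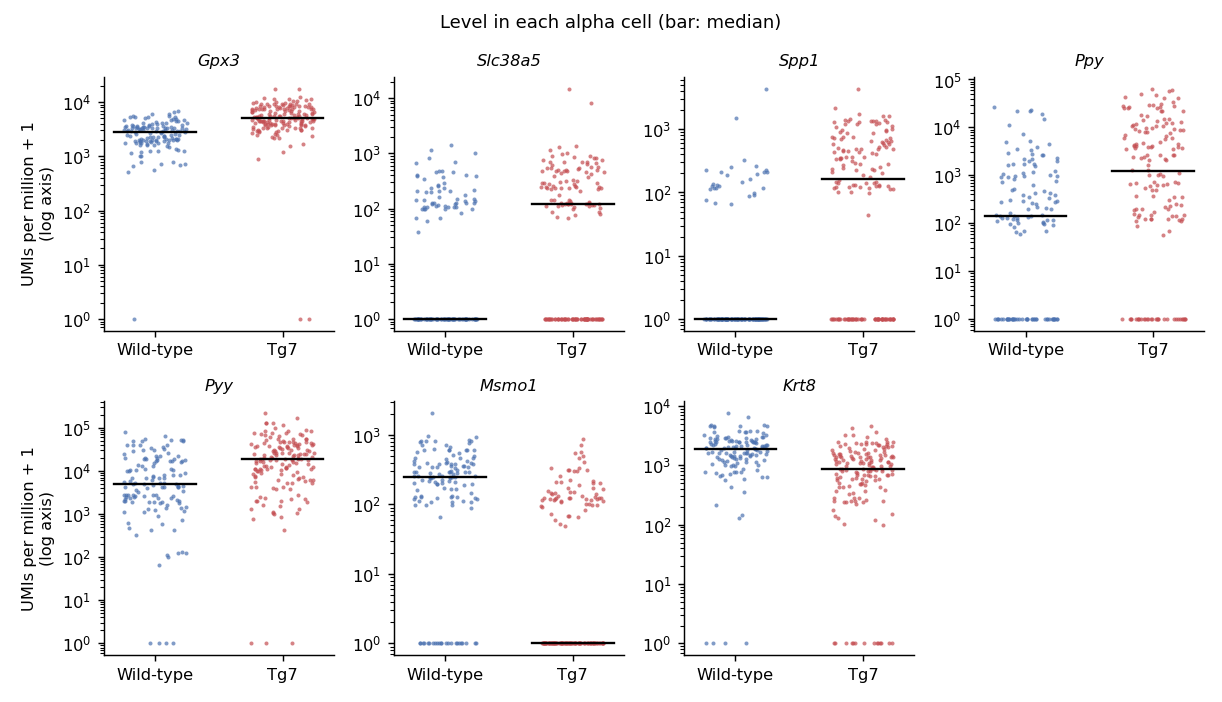
Level in each α-cell (UMIs per 1000000 non-hormone UMIs plus 1, log axis) for 7 genes, with 1 point per cell and a bar at the median. Gpx3, Pyy and Ppy are shifted up in Tg7, Slc38a5 and Spp1 show more cells above 0, Msmo1 shows more cells at 0, and Krt8 is shifted down.

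Among the gene lists with at least 3 measured members, cholesterol and fatty acid synthesis had the median farthest below that of all genes. All 15 measured of 24 members were lower in Tg7 by ratio, 14 with an interval below 1 and 13 by 2-fold or more, where 14% and 2.16% of all genes were. The median log2 ratio was -1.43, against -0.07 for all genes. Summed over the 15, the level was 837 in Tg7 and 1903 in Wild-type α-cells, 2.27-fold lower (2.12 to 2.44). Per cell the sum ran from 0 through a median of 772 to 6435 in Tg7 and from 0 through 1714 to 6205 in Wild-type. The quartiles were 488 and 1146 in Tg7 and 1177 and 2442 in Wild-type, so the middle 50% of cells did not meet.

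Msmo1 and Hmgcs1 were counted most among the strongest. Msmo1, a demethylase of sterol synthesis, had a level of 80.9 in Tg7 and 291 in Wild-type, 3.60-fold lower (2.90 to 4.50), and after thinning was seen in 10.96% and 39.5% of cells. Hmgcs1, which makes the precursor of mevalonate, had 80.1 and 271, 3.38-fold lower (2.72 to 4.25). Sqle, which makes squalene epoxide, was 3.31-fold lower and Idi1, which isomerises isopentenyl units, 2.74-fold. The regulator Srebf2 and the sterol sensor partner Insig1 had ratios of 0.408 and 0.365. All measured genes of the sterol arm thus lay below 1. Of the fatty acid genes, the desaturase Scd2 was 3.05-fold lower, whereas Fasn (0.922, 0.624 to 1.36) and Acly (0.842, 0.709 to 0.999) were nearer 1.

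The same 15 genes were measured in insulin-only cells, where 14 lay below 1 and the median log2 ratio was -0.60. There the sum was 1.47-fold lower (1.45 to 1.503), at 1848 in Tg7 and 2725 in Wild-type. In the few Ppy-only cells (19 and 10) the sum was 1.13-fold lower (0.900 to 1.42), in Sst-only cells (13 and 20) 1.10-fold (0.877 to 1.39), and in cells without a hormone it was higher (ratio 1.57, 1.33 to 1.86). The interval in α-cells did not overlap any of these, though all cover only counting error within 1 pair of libraries.

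**Figure D5:**
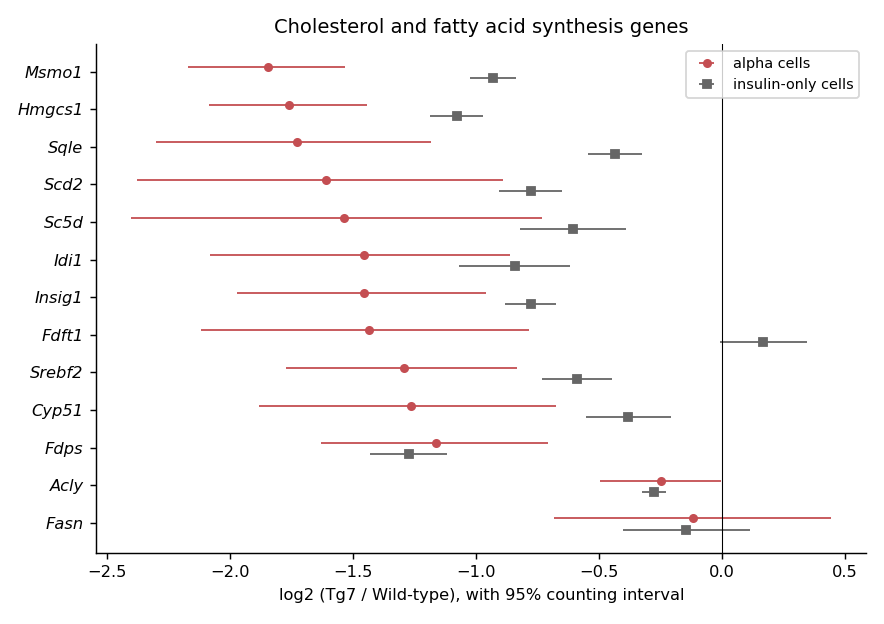
Log2 ratio of Tg7 over Wild-type with its 95% counting interval for 13 of the 15 measured cholesterol and fatty acid synthesis genes, in α-cells (circles) and insulin-only cells (squares). All α-cell points lie below 0, with medians over the 15 of -1.43 in α-cells and -0.60 in insulin-only cells, and of the plotted intervals only those of Fasn in α-cells and of Fasn and Fdft1 in insulin-only cells cross it.

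The promoters of these genes were read because sterol synthesis genes are known to share a control through SREBP2 and its partner NF-Y, which binds CCAAT. RefSeq promoter sequences (GRCm38.p6, the 250 bases before the gene start) were at hand for 16 of 24 members, 9 of them measured. CCAAT on either strand was found in 13 of the 16 and in 8 of the 9, and in 37.5% of 27025 genes. The 8 included Fasn, whose ratio in α-cells had an interval that included 1. A sterol element of the form TCACNCCAC was found, on either strand, in Hmgcs1 alone, and in 1.22% of all genes. CACGTG, which reads the same on both strands, was found in 3 of the 16 and in 6.86% of all genes. The stretches around the match are given for 4 of the 8 measured genes with a match, with capitals marking CCAAT or its reverse complement ATTGG and, in the last, the sterol element. They lie at chr8:64733616-64733645 (Msmo1, minus strand), chr13:119690294-119690323 and chr13:119690204-119690233 (Hmgcs1, plus strand), chr13:8885576-8885605 (Idi1, plus strand) and chr5:28071184-28071213 (Insig1, plus strand).
Msmo1: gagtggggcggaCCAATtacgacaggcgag
Hmgcs1: tccccgcctctcATTGGctgaaagcggatc
Idi1: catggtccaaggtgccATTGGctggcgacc
Insig1: cgccctcctcccATTGGctccggcggcctc
Hmgcs1 sterol element: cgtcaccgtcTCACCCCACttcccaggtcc
A match describes the letters of the window and no binding was measured.

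Of 17 measured genes of epithelial keratins, junctions and factors 12 were lower by ratio (58.6% of all genes were) and 5 higher, 8 with an interval below 1 (14%) and 1 by 2-fold or more, and the median log2 ratio was -0.25. Krt8 and Krt18, the keratin pair of simple epithelia, had levels of 1063 and 550 in Tg7 and 2038 and 1060 in Wild-type, 1.92-fold (1.80 to 2.05) and 1.93-fold (1.76 to 2.11) lower. Epcam, an adhesion molecule, was 1.69-fold lower, and the tight junction gene Cldn4 3.96-fold (3.14 to 5.04). Cldn4 was also 5.66-fold lower in insulin-only cells and 7.22-fold lower in cells without a hormone. Esrp1, a splicing factor of epithelia, went the other way (1.91, 1.21 to 3.06) on 61 and 30 UMIs. Of 23 genes of epithelial-mesenchymal transition 6 were measured and 10 and 8 had no UMI. Cdh2 and Zeb1 were 1.74-fold and 1.73-fold lower, and Vim had 2 and 3 UMIs. Serpine2, at 68.9 in Tg7 and 0.603 in Wild-type insulin-only cells, had 55.4 and 44.7 in α-cells (ratio 1.24, 0.865 to 1.79).

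The other genes among the 12 lowest belonged to several functions. Fhl2, a LIM-domain cofactor, was 5.22-fold lower (3.24 to 8.80), at 15.7 in Tg7 and 82.2 in Wild-type, and F3, tissue factor, 3.92-fold, at 21.0 and 82.2. The factors Creb5 and Npas4, the latter induced by calcium entry, were 3.86-fold and 3.63-fold lower, and the clock gene Per2 3.40-fold. In insulin-only cells F3 was 5.41-fold, Npas4 6.22-fold, Per2 3.56-fold and Fhl2 1.52-fold lower in Tg7, whereas the Creb5 ratio was 1.39 (0.352 to 6.46). Wild-type cells without a hormone had more of F3 (103) and Creb5 (269) than the 82.2 and 69.4 of Wild-type α-cells. Upk3a was 2.85-fold lower (ratio 0.351), and its ratio was 0.561 among α-cells with Ppy under 0.1%. Ccdc88c was 3.43-fold lower in α-cells and stood at 7.17 in Tg7 and 0.965 in Wild-type insulin-only cells.

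Genes induced by activity or dissociation were mixed. Of 18 measured immediate early genes 12 were lower (58.6% of all genes were) and 6 higher by ratio, with 10 intervals below 1 (14%) and 2 above (7.56%), and a median log2 ratio of -0.30. Egr4 was counted 6 times in Tg7 and 60 times in Wild-type (10.7-fold lower, 4.62 to 30.2), Fosl2 was 2.19-fold lower and Jund 1.56-fold lower, whereas Egr1 had a ratio of 1.43 (1.295 to 1.58). Their summed level was 10377 in Tg7 and 12652 in Wild-type α-cells (ratio 0.820) and 7062 and 12241 in insulin-only cells (ratio 0.577). These genes are known to respond to cell handling, and with 1 library a genotype, handling and genotype cannot be told apart.

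The machinery that makes and stores the hormone differed by less than 2-fold. Of 12 measured genes of prohormone processing 7 had an interval below 1 (14% of all genes did) and 4 above (7.56%), and the median log2 ratio was -0.11. Pcsk2, the convertase of α-cells, had a ratio of 0.916 (0.888 to 0.946), and Pcsk1 had 2 and 4 UMIs. Pcsk1n, an inhibitor of Pcsk1, was 1.54-fold lower (1.499 to 1.58) at 6293 and 9698, and the granin Chga 1.303-fold lower. The amidating enzyme Pam (1.47, 1.36 to 1.59) and the granin Scg2 (1.41, 1.29 to 1.53) were higher. The carboxypeptidase Cpd lay just inside the limit, with levels of 36.7 and 73.4. Of 22 measured genes of granule docking none reached 2-fold. Unc13b and Cadps, which prime granules, were 1.81-fold and 1.69-fold lower and the calcium sensor Syt4 1.67-fold, while Rab3a was higher (1.74, 1.18 to 2.61), a gene at 159 and 170 in insulin-only cells.

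Receptors and channels that tune glucagon release were counted thinly. Sstr2, the somatostatin receptor of α-cells, was counted 9 times in Tg7 and 47 times in Wild-type, 5.56-fold lower (2.69 to 12.9), while Sstr3 had 47 and 47. The fatty acid receptor Ffar4 had 29 and 59 UMIs and was 2.167-fold lower (1.37 to 3.51). Avpr1b, the vasopressin receptor through which glucagon release is raised, had 42 and 20 UMIs (ratio 1.97, 1.13 to 3.54). The glucagon receptor Gcgr and Glp1r had at most 2 UMIs. Of 17 measured channel genes none reached 2-fold. The lowest was the P/Q calcium channel gene Cacna1a (0.501, 0.370 to 0.673), and Kcnj11, the pore of the KATP channel, was highest (1.58, 1.11 to 2.26). Of 15 measured genes of cAMP signalling none reached 2-fold, with Crem at 1.64 (1.16 to 2.33) and the phosphodiesterase Pde10a at 0.797.

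Of 23 measured genes of the unfolded protein response 19 were lower by ratio (58.6% of all genes were), 9 with an interval below 1 (14%), with a median log2 ratio of -0.20. The kinase gene Eif2ak3 was 1.85-fold lower and Ppp1r15a 1.43-fold lower. Of 8 measured interferon and antigen presentation genes 7 were lower by ratio (58.6% of all genes were), 3 with an interval below 1 (14%). Their median was -0.51, but H2-D1 (0.653) and H2-K1 (1.05) share sequence and their split is uncertain. Among oxidative stress genes Srxn1 was 2.21-fold lower (1.68 to 2.93) and the metallothionein Mt1 1.55-fold lower, beside the higher Gpx3 and Txnip (1.63, 1.33 to 2.01), a thioredoxin inhibitor. Of 13 measured p53 targets and cell cycle inhibitors Zmat3 alone passed 2-fold (2.03, 1.31 to 3.21), where 0.713% of all genes were 2-fold higher. Cdkn1a had a ratio of 1.65 (1.25 to 2.19), while Gadd45b was 1.90-fold lower. The ribosomal protein genes had ratios above 1 in 72 of 80 cases (41.4% of all genes did), with a median log2 ratio of 0.17 that was 0.03 when scaled to all UMIs. Of 24 measured nuclear genes of the respiratory chain 19 lay above 1 (41.4% of all genes did), and their median of 0.11 was -0.03 when scaled to all UMIs. That scaling lowers the log2 ratio of every gene by the same amount, so both lists kept their distance above the median of all genes. Proliferation genes were low, with 2 UMIs of Mki67 in each library and none of Ccnb1. Of 16 such genes 7 had no UMI in Tg7 and 8 in Wild-type, and the summed level was 58.4 and 90.1. The 1 measured member was lower in Tg7 (log2 ratio -0.774, -1.40 to -0.166), where 14% of all genes had an interval below 1.

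Genes at least 5-fold higher in insulin-only cells were ranked apart, since free β-cell RNA could reach α-cells, and its part was not tested. Defb1 (1.89), Rab3a, Nucb2 (1.51) and Scg2 stood highest among them, and Abca1 (0.513), Hopx (0.642), Enpp2 (0.751) and Ero1lb (0.825) lowest, so none passed 2-fold.

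In glucose metabolism none of 13 measured genes reached 2-fold. Pdk4, which limits pyruvate oxidation and is a FoxO target, had a ratio of 1.96 (1.37 to 2.82). Of 17 measured genes of insulin signalling and FoxO targets 9 lay above 1 (41.4% of all genes did) and 8 below (58.6%). Of their intervals 2 lay above 1 (7.56%) and 3 below (14%). By ratio none was 2-fold higher (0.713%) and 1 was 2-fold lower (2.16%). The median log2 ratio of the list was 0.09, and -0.05 when scaled to all UMIs, which lowers every gene alike. The intervals above 1 were those of Pdk4 and Txnip, and among the lower members the receptor Igf1r was 1.97-fold lower and Igfbp7 1.76-fold lower (1.57 to 1.98). Of 8 measured ATF4 targets none reached 2-fold: Sesn2 was 1.85-fold lower and Mthfd2 1.58-fold lower, and Aldh18a1 was at 1.302 (0.869 to 1.96).

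Of 25 listed targets of miR-7, 14 were measured in α-cells. Their median log2 ratio was -0.49. By ratio 9 lay below 1, where 58.6% of all genes did, 5 with an interval below 1, where 14% of all genes had one. Relb, an NF-κB subunit, was counted 18 times in Tg7 and 56 times in Wild-type (3.31-fold lower, 1.92 to 5.99), Pfn2 was 1.68-fold lower and Basp1 1.497-fold lower (1.28 to 1.75). Basp1 stood at 113 in Tg7 and 3.62 in Wild-type insulin-only cells. Pax6, Dnajc5 and Ckap4 had ratios from 1.004 to 1.03, and Klf4 of 1.144. The microRNA was not among the measured features, so its level in these α-cells is not known.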

How the data were processed

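The counts were used as deposited: the authors' filtered matrices of UMI counts per gene and barcode (31054 features, tdTomato included). Per the submitters' processing notes, Cell Ranger 3.0.2 with STAR and mm10 gave the counts, after demultiplexing by bcl2fastq 2.17.1.14. No source used here names the annotation release. Gene positions and sequences are RefSeq's for GRCm38.p6, the assembly of mm10. The libraries held 1123 (Tg7) and 855 (Wild-type) barcodes with 29931777 and 30829078 UMIs.

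Members and gene lists were chosen with earlier results of these data known. The summed counts were compared in Python 3.11.15 (numpy 2.4.6, scipy 1.17.1, pandas 2.3.3) as ratios with conditional exact binomial intervals. With 1 library a group, no p-value was computed. A gene was measured with at least 50 UMIs in the α-cells of both libraries together. Simulated data tested the code. Scrublet, run through scanpy 1.11.5, marked doublets at an assumed 0.8% per 1000 barcodes, and these were removed only as an alternative. TMM factors came from edgeR 4.0.16 in R 4.3.3.

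Named genes were members of the α-cell factor, marker and prohormone lists, the 12 highest and 12 lowest ratios (at least 100 UMIs, seen in at least 10% of cells of the higher library, no hormone, mitochondrial, ribosomal or unnamed gene), 15 leading genes, and in each list with at least 3 measured members up to 3 that lay farthest on the median's side of 1 plus 1 from the opposite side. Genes at least 5-fold higher in insulin-only cells were ranked apart. Receptors and a few other members were named after their values were seen. Alternatives were other scalings, thinning to 2000 UMIs, other limits on cells and genes, and leaving out single cells. Some genes that the rule names are not reported here.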

Additional observations from a re-analysis of the deposited data

Results flagged for a closer look

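The difference between Tg7 and Wild-type went in opposite directions in α-cells and insulin-only cells for several named genes, and this was not tested. Abca1, at 0.513 in α-cells and 1.92 in insulin-only cells, was 1 of them. Among the 12 highest and 12 lowest, Creb5 and Upk3a did so with an insulin-only interval that included 1, and 3 others with both intervals excluding 1. Agt had a ratio of 2.23 in α-cells and 0.594 in insulin-only cells. For Dnlz the ratios were 2.02 and 0.757, and for Ccdc88c they were 0.292 and 7.43.

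Barcodes outside the cell filters also met the hormone limits: 13 in Tg7 and 0 in Wild-type had too few UMIs or too large a mitochondrial share. They entered no comparison.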

How the results depend on the processing

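No paired analysis was possible because each group is 1 library. The 43 higher and 130 lower genes became 26 and 238 when levels were scaled to all UMIs, 12 and 30 after thinning to 2000 UMIs, 191 and 365 with a minimum of 20 UMIs, and 8 and 25 with a minimum of 200. With Ppy under 0.1%, a limit chosen after seeing the data, 24 genes were higher, and α-cells made up 8.25% of Tg7 and 14.2% of Wild-type cells. The 10 leading genes became 6 with all UMIs and 4 at a ratio of 8. Of the 61 genes followed through the alternatives 27 were past 2-fold, and all 27 kept their direction in the 10 alternatives, of which thinning gave a value for 24. Of the 27, 6 fell under 2-fold with Ppy under 0.1%, 3 with all UMIs and 3 with equal weight for each cell. Thinning brought 3 of its 24 under 2-fold. Other named genes past 2-fold, such as Egr4, Sstr2 and Relb, were not followed through all alternatives. In thinned cells, which had no hormone UMIs, lists whose median rests on a hormone gene gave no value. Low counts limit the genes near 50 UMIs most.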
